A study of Mus musculus with 6 samples.

Results

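The Hox genes are the protein-coding genes of the 4 Hox clusters, which encode homeodomain transcription factors. In the deposited table of 38087 genes, 39 rows were of the protein-coding type and had a symbol made of Hox, a cluster letter and a number, and all 39 were kept whatever their level. The Hoxa cluster on chromosome 6 gave 11 members, Hoxb on chromosome 11 gave 10, and Hoxc on chromosome 15 and Hoxd on chromosome 2 gave 9 each. The number in the symbol is the paralog group, from 1 at the 3' end of a cluster to 13 at its 5' end, and 23 members fell in groups 1 to 8 and 16 in groups 9 to 13.

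RNA-seq of brain was compared between 3 wild-type (WT) mice and 3 mice with 1 working allele of Sgo1 (Sgo1-/+), a gene that protects the cohesion of sister chromatids. All were mice of 24 months without further treatment, given as C57BL6 in the labels and as based on C57BL/6 in the study's methods, and 1 library was made per mouse. WT replicate 1 and Sgo1-/+ replicate 2 were male and the other mice female. All WT libraries were sequenced in run 258 and all Sgo1-/+ libraries in run 259, so run and genotype cannot be told apart. The tissue is given as cerebrum with cortex and hippocampus, from which olfactory bulb, cerebellum and medulla had been left out. The Sgo1 allele is carried by every cell type, and whole tissue was extracted.

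Hox genes are laid out along each cluster in the order in which they are switched on along the head to tail axis of the embryo, so that 3' genes are used from the hindbrain on and 5' genes only further down the spinal cord. Neurons of the adult hindbrain and spinal cord keep much of this code, whereas the forebrain, the midbrain and the most anterior hindbrain, from which the cerebellum forms, develop without Hox expression. Hox proteins bind DNA together with cofactors of the TALE family (Pbx, Meis and Pknox), and Polycomb proteins keep silent Hox genes off.

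Each library held between 11123917 and 12505561 counts. A count of 0 at this depth allows up to 3 counts, so values at or under 3 were read as having no order, and intervals cover counting error only, as the libraries had no molecular identifiers to tell PCR copies apart. The targeted gene was too low to check the labels, with 0, 7 and 0 counts of Sgo1 (listed as Sgol1) in the WT libraries and 4, 2 and 0 in the Sgo1-/+ libraries. WT replicate 1 stood apart from the other 5 libraries and went against the labelled tissue. Of 15 forebrain markers, 14 were lowest in WT replicate 1. Slc6a5, the glycine transporter of brain stem and spinal cord neurons, was at 2653 in WT replicate 1 and between 1.01 and 40.6 elsewhere. The cerebellar granule cell gene Gabra6 was at 2168 in WT replicate 1 and between 0 and 72.6 elsewhere. In whole tissue, fewer cells of a type and less RNA per cell cannot be told apart. Results are therefore given with and without WT replicate 1.

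The promoters of 3 members are shown because these genes lie near the anterior end, in the peak group and at the posterior edge of the Hox signal described next. Hoxd1, with 21 counts in WT replicate 1, belongs to a more anterior group than Hoxa2. Hoxa5 was the highest member per kilobase of exon, while Hoxb5 had the most counts. They run from 250 bases before to 50 bases after the start of the gene in RefSeq (build GRCm38.p6) and are written 5' to 3' on the gene's strand. Capitals mark matches, on either strand, to the Pbx-Hox composite letters TGATNNAT or to the Meis letters TGACAG. The Hoxa5 window holds neither. The start that RefSeq gives for Hoxa2 lies inside the gene as the deposited table bounds it.
Hoxa2, chr6:52164782-52165081, minus strand: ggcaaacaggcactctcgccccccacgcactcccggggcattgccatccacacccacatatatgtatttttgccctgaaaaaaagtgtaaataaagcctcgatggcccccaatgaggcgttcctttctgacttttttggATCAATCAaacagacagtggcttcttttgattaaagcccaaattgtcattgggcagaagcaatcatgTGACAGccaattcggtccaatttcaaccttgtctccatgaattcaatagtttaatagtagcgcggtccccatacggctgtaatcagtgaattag
Hoxa5, chr6:52204538-52204837, minus strand: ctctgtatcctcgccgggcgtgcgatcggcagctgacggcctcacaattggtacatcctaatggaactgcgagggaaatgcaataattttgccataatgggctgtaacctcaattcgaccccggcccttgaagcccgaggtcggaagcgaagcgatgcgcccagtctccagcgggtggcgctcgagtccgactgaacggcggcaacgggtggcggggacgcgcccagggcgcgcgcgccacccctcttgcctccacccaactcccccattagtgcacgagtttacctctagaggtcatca
Hoxb8, chr11:96281655-96281954, plus strand: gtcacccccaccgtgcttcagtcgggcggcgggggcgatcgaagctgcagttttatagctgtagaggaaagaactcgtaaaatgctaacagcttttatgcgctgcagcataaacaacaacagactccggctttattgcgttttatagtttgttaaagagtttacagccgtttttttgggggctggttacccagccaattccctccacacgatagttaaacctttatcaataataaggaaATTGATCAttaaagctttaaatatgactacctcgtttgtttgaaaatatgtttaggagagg
RefSeq promoters were at hand for 22 of the 39 members, with 24 promoters in all. The composite letters TGATNNAT were found in 4 of the 24 (16.7%), those of Hoxa2, Hoxb1, Hoxb8 and Hoxd11, and in 8.85% of 32851 promoters of the same length. The Meis letters TGACAG were found in the promoters of Hoxa2 and Hoxa3 (8.33%) and in 19.2% of all promoters. The CCAAT letters were found in 62.5% of Hox promoters and in 37.4% of all promoters, while TATAAA was found in 16.7% and 13.6%. A match to TTTATGG, the letters bound by Cdx factors, was found in the Hoxd4 promoter alone (4.17%, against 2.75% of all). Hox promoters held a median of 14.5 CG dinucleotides, from 4 to 45, against a median of 7 over all promoters. The promoters that carried the composite letters belonged to genes on both sides of the range of expression, since Hoxa2 and Hoxb8 were clearly detected in WT replicate 1 and Hoxb1 was at 2 counts there.

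Nearly all Hox RNA of the series was in WT replicate 1. Summed over the 39 members, WT replicate 1 held 1958 normalized counts, WT replicates 2 and 3 held 32.0 and 41.1, and Sgo1-/+ replicates 1 to 3 held 40.8, 26.4 and 33.1. WT replicate 1 thus held 91.8% of the Hox counts of all 6 libraries (exact 95% binomial interval 90.6 to 93.0%). The signal came from groups 1 to 8, which summed to 1947 normalized counts in WT replicate 1 and to 18.9 and 29.9 in the other WT libraries and 15, 12.2 and 12.8 in the Sgo1-/+ libraries. For these groups WT replicate 1 was between 65.1-fold and 160-fold above each other library and held 95.6% of the counts (interval 94.6 to 96.5%). Groups 9 to 13 did not set WT replicate 1 apart, with 10.9 normalized counts there and between 11.2 and 25.8 in the others.

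**Figure D1:**
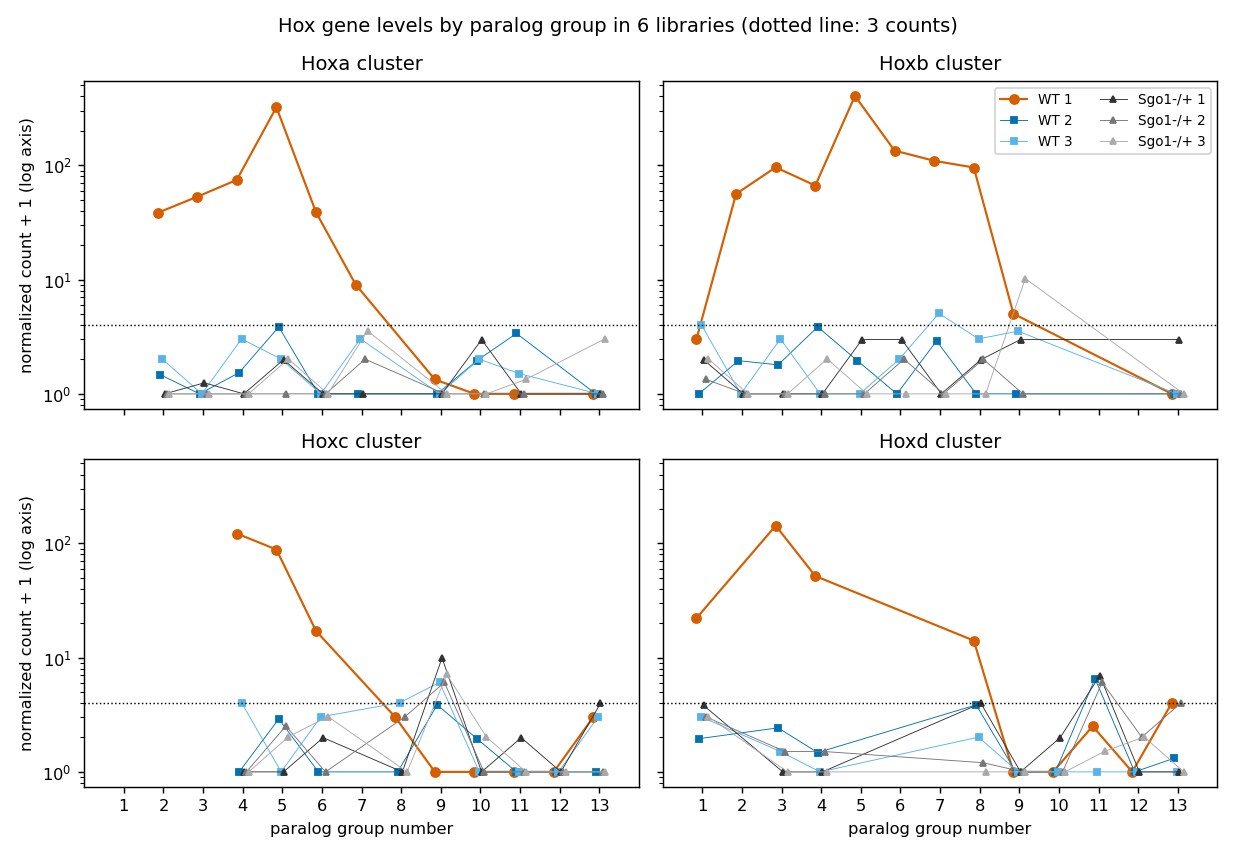
Normalized count plus 1 (log axis) of the Hox genes reported by paralog group, 1 panel per cluster, with 1 point per library (shifted sideways within a group to keep points apart) and a dotted line at 3 counts. The WT replicate 1 points of groups 2 to 6 lie above those of the other 5 libraries in each cluster, and from group 9 on they lie close to or among them, apart from Hoxc9, where the WT replicate 1 point is the lowest of the 6.

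Gene by gene, 21 of the 23 members of groups 1 to 8 were highest in WT replicate 1 and over 3 counts there, and 19 were over 10 counts. Of those 19, 18 were at or under 3 counts in each of the other 5 libraries. The exception was Hoxb7, which had 108 counts in WT replicate 1 and 4 in WT replicate 3. Across the table, 63 of 20901 genes with over 3 counts in some library (0.301%) had this pattern in WT replicate 1, and Hox genes made up 28.6% of those 63. The 18 were 46.2% of all 39 members, of which 24 were among the 20901 genes. The same pattern in favour of another library was met by 0.0144% and 0.00478% of genes for WT replicates 2 and 3, and by 0.0191%, 0.00957% and 0.0191% for Sgo1-/+ replicates 1, 2 and 3. The remaining members of groups 1 to 8 were Hoxb1 and Hoxc8, at 2 counts each in WT replicate 1 and up to 3 elsewhere.

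The comparison that the study was designed for, Sgo1-/+ against WT, gave no Hox gene past the threshold. None of the 39 members passed edgeR's default filter on low counts, which left 16337 genes, and 0 of these (percent called 0) had a Benjamini-Hochberg adjusted p under 0.05 with a 2-fold difference. With the filter off, 36 members were among the 26061 genes fitted, 0 passed, and the smallest adjusted p of edgeR's quasi-likelihood test was 0.95. At an unadjusted p under 0.05, 16 members (44.4% of those fitted) were lower in Sgo1-/+ and 0 were higher, where 1.41% of all fitted genes were lower and 0.752% higher. All 16 were over 10 counts in WT replicate 1. The smallest unadjusted p was that of Hoxa5, 0.0116 by edgeR, and an exact two-sided permutation test over the 20 groupings of its normalized counts gave p = 0.2, where 0.1 is the smallest p the design allows. The median fitted log2 fold change of the 36 members was -2.40, against a median of 5.8e-05 over all genes fitted. Fitted values of genes near 0 depend on the prior count. With such genes set to the bound that 3 counts allow, the median over the 24 members that have a fold or a bound was -2.57. Only 4 of these exceeded 3 counts in a library other than WT replicate 1, so this choice of members favours a negative median.

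Without WT replicate 1 this difference was not seen. Of 33 members fitted, 1 (3.03%) had an unadjusted p under 0.05, where 3.56% of all fitted genes had one, and the median log2 fold change was 0.02. The one member was Hoxb7, with 2 and 4 counts in WT replicates 2 and 3 and 0 in each Sgo1-/+ library, and the smallest adjusted p of edgeR's quasi-likelihood test was 0.968. Only 4 members then had over 3 counts in any library, and with genes set to their bound the median log2 fold change of these was 0.40. Between genotypes, the sum over groups 1 to 8 was 13.3 ± 1.47 normalized counts in Sgo1-/+ (SD, n = 3), and both remaining WT libraries were above all 3 Sgo1-/+ libraries. The sum over groups 9 to 13 was 11.7 ± 1.15 in WT (SD, n = 3) and 20.1 ± 5.82 in Sgo1-/+ (SD, n = 3), with each Sgo1-/+ library above each WT library. These sums rest on between 10.8 and 29.5 counts a library. Hoxc9 was the only member with over 3 counts in every library of its higher group, and its groups overlapped. For 1 gene at a time the groups failed to overlap in 3.31% of genes in the direction of lower and 3.12% in the direction of higher in Sgo1-/+. With 1 member that could meet the condition, the members cannot be set against these shares.

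Groups 1 and 2 pattern the anterior hindbrain, where Hoxa2 reaches furthest forward of all Hox genes. Hoxb1, which gives rhombomere identity in the embryonic hindbrain, was at or under 3 counts in each library. Hoxd1 had 21 counts in WT replicate 1 and between 1 and 2.83 in the others. With lower values raised to 3 counts, it was 6.89-fold above the highest other library. This fold and those against 3 counts below leave out counting error, so they are not lower limits. Hoxa2 had 37.1 counts in WT replicate 1, 0.5 and 1 in the other WT libraries, and 0 in each Sgo1-/+ library. Hoxb2, a direct target of Egr2 in the hindbrain, had 54.8 counts in WT replicate 1, and of the other 5 libraries only WT replicate 2 was above 0, at 1. Both were far above the limit of 3 counts in one WT library and under it in the other 5.

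Groups 3 and 4 have their anterior limits in the posterior hindbrain. Hoxa3 had 51.7 counts in WT replicate 1 and at most 0.25 in the others. Hoxb3 had 94.3 counts in WT replicate 1, 0.83 and 2 in the other WT libraries and 0 in each Sgo1-/+ library. Hoxd3 had 141 counts in WT replicate 1 and at most 1.5 in the others, the highest value of the Hoxd cluster. All 4 clusters have a gene of group 4, and each was detected in WT replicate 1. The WT replicate 1 counts were 73.0 for Hoxa4, 65.0 for Hoxb4, 120 for Hoxc4 and 50.4 for Hoxd4. In the other 5 libraries none of these genes was above 3 counts, which Hoxb4 reached in WT replicate 2 and Hoxc4 in WT replicate 3. Against 3 counts, WT replicate 1 was 16.5-fold higher for Hoxd4, 21.3-fold for Hoxb4, 23.9-fold for Hoxa4 and 39.4-fold for Hoxc4.

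Group 5 carried the most Hox RNA, 812 normalized counts or 41.5% of all Hox counts of WT replicate 1. Its genes act at the junction of hindbrain and spinal cord, and Hoxa5 is also known for its part in breathing. Hoxb5 (chromosome 11, 96302595 to 96306120, build mm10) had 401 counts in WT replicate 1, 1 and 0 in the other WT libraries, and 2, 0 and 0 in the Sgo1-/+ libraries. Hoxa5 (chromosome 6, 52201754 to 52204587) had 319 counts in WT replicate 1, 3 and 1 in the other WT libraries, and 1, 0 and 1 in the Sgo1-/+ libraries. In both genes a single WT library was high and the other 5 were at or under 3 counts. Against 3 counts, WT replicate 1 was 131-fold higher for Hoxb5 and 105-fold for Hoxa5. Hoxc5 had 86.7 counts in WT replicate 1 and at most 2 in the others.

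Groups 6 to 8 are central genes of the clusters and are used in the spinal cord, including its cervical part. Hoxb6 had 133 counts in WT replicate 1, and 0 and 1 in the other WT libraries and 2, 1 and 0 in the Sgo1-/+ libraries. Hoxa6 had 37.5 counts in WT replicate 1 and 0 in all 5 others. Hoxc6 had 16 counts in WT replicate 1 and at most 2 in the others. These 3 genes ran parallel to group 5 at lower counts. Hoxb7 had 108 counts in WT replicate 1, 2 and 4 in the other WT libraries and 0 in each Sgo1-/+ library. Hoxa7 had 8 counts in WT replicate 1 and at most 2.5 in the others. Hoxb8, best known for the grooming behaviour of its mutants, had 93.9 counts in WT replicate 1, 0 and 2 in the other WT libraries, and 1, 1 and 0 in the Sgo1-/+ libraries. Within these groups the Hoxb genes had the most counts of any cluster. Hoxd8 had 13 counts in WT replicate 1 and at most 3 in the others, a difference of at least 4.27-fold, whereas Hoxc8 was under the limit.

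Groups 9 to 13 pattern the thoracic to sacral cord, the limbs and the urogenital tract. Only Hoxb9, Hoxc9 and Hoxd11 of the 16 members exceeded 3 counts in any library, and Hoxd9 and Hoxc12 were at 0 in all 6. Hoxb9 had 4, 0 and 2.5 counts in the WT libraries and 2, 0 and 9 in the Sgo1-/+ libraries. Hoxc9 had 0, 3 and 5 counts in the WT libraries and 9, 5 and 6 in the Sgo1-/+ libraries. Hoxd11 had 1.5, 5.83 and 0 counts in the WT libraries and 6, 5 and 0.5 in the Sgo1-/+ libraries. The groups overlapped for Hoxb9 and Hoxd11, and for Hoxc9 Sgo1-/+ replicate 2 was level with WT replicate 3. Exact two-sided permutation tests (n = 3 against 3) gave p = 0.9 for Hoxb9, p = 0.2 for Hoxc9 and p = 0.6 for Hoxd11. The other 13 members were at or under 3 counts in each library, too low for a difference to be seen.

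The most caudal paralog group detected therefore depended on how many counts were asked for. With over 3 counts in a gene, it was group 9, 11 and 9 in the WT libraries, in the order of their replicate numbers, and group 11, 11 and 9 in the Sgo1-/+ libraries. By this measure the libraries fell into the same range whatever their genotype, and in the 5 libraries other than WT replicate 1 it rested on at most 9 counts of Hoxb9, Hoxc9 or Hoxd11. With over 10 counts in a gene, it was group 8 in WT replicate 1, through Hoxb8 and Hoxd8, and no group in the other 5 libraries. In the Hoxb cluster the edge in WT replicate 1 was steep. Hoxb8 had 93.9 counts (95% Poisson interval 76.0 to 115) and its 5' neighbour Hoxb9 had 4 (1.09 to 10.2). The fall was spread over more genes in Hoxa, with 319, 37.5, 8 and 0.33 counts at Hoxa5, Hoxa6, Hoxa7 and Hoxa9. In Hoxc it went from 120 and 86.7 at Hoxc4 and Hoxc5 to 16 and 2 at Hoxc6 and Hoxc8.

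Levels of different genes were compared per kilobase of exon, within WT replicate 1. In the Hoxa cluster the normalized count per kilobase was 21 at Hoxa2, 8.66 at Hoxa3, 46.1 at Hoxa4 and 171 at Hoxa5, and 43.3 at Hoxa6, 2.80 at Hoxa7 and 0.06 at Hoxa9. In the Hoxb cluster it went from 15.8 at Hoxb2 and 25.5 at Hoxb4 to 145 at Hoxb5, stayed at 68.0, 70.3 and 35.9 at Hoxb6, Hoxb7 and Hoxb8, and was 1.56 at Hoxb9. Both clusters peaked at group 5, and Hoxb kept a high level further along the series than Hoxa. The Hoxc cluster, which starts at group 4, was highest at its first gene, with 47.1 at Hoxc4, 28.3 at Hoxc5, 6.69 at Hoxc6 and 0.71 at Hoxc8. The Hoxd cluster had 11.4 at Hoxd1, 33.8 at Hoxd3, 17.2 at Hoxd4 and 4.77 at Hoxd8. The last gene over 10 counts belonged to group 6 in Hoxa and Hoxc and to group 8 in Hoxb and Hoxd. By cluster, Hoxb held 49.1% of the normalized Hox count of WT replicate 1, Hoxa 27.4%, Hoxd 11.8% and Hoxc 11.7%.

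**Figure D2:**
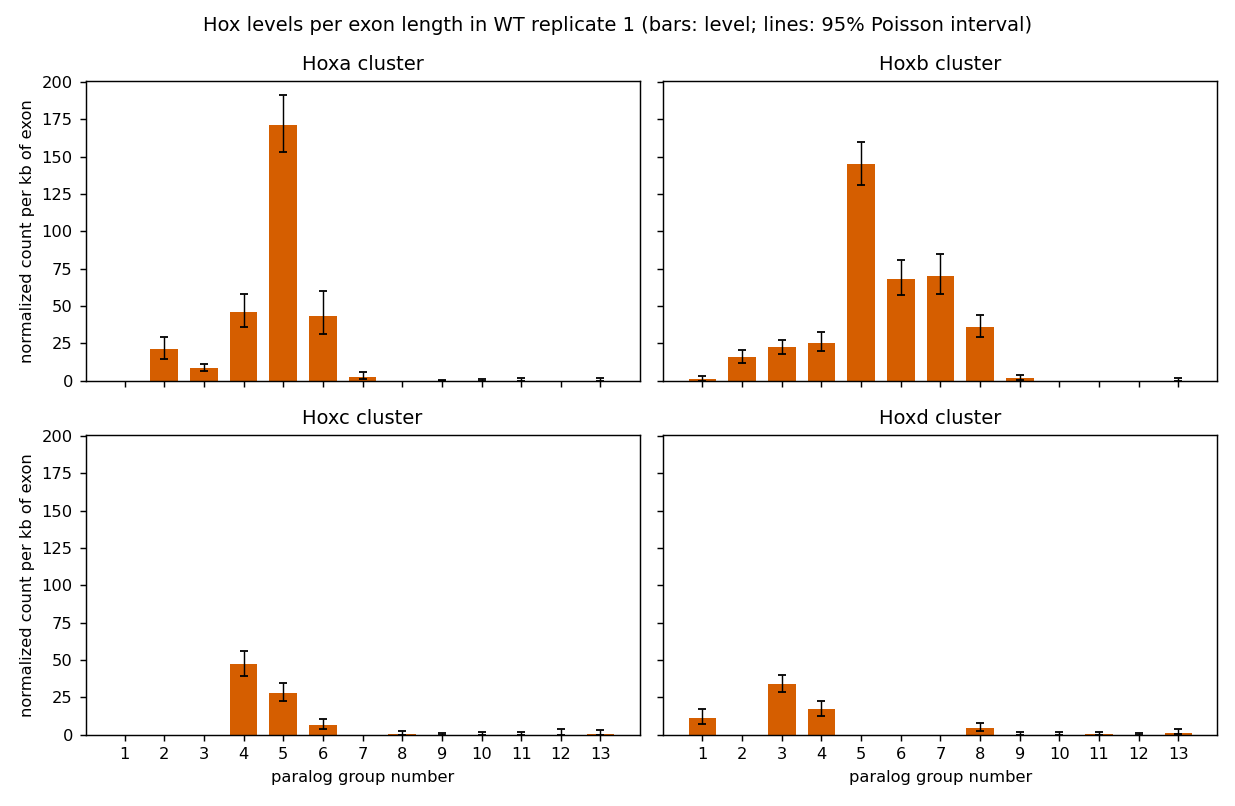
Normalized count per kilobase of exon (vertical axis) of the Hox genes reported by paralog group in WT replicate 1, 1 panel per cluster, with 95% Poisson intervals of the rounded counts as lines. The bars peak at Hoxa5 (171) and Hoxb5 (145), at Hoxc4 (47.1) and at Hoxd3 (33.8), and none stands above 1.6 from group 9 on.

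Exon overlap limits single values. In the mouse annotation GENCODE M21, 16 of the 39 members share exon sequence with another gene, 10 of them with a gene on the opposite strand and 9 with one on the same strand. Hoxd3 and Hoxd4 share 62.3% and 52.3% of their exon length with each other and a further gene model, so their counts cannot be separated with certainty. Antisense exons cover 52.9% of Hoxb3 and 27.3% of Hoxb2, both through Hoxb3os. Members that share none were found on both sides of 10 counts in WT replicate 1. Hoxa5, Hoxb4, Hoxb6, Hoxb7, Hoxb8, Hoxc4 and Hoxa6 were among those over it. Hoxb1 and Hoxc8, at 2 counts each, were among those under it.

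Of 29 noncoding rows within the clusters, 9 had over 3 counts in any library and 14 were at 0 in all libraries, 11 of these microRNA rows. Over 10 counts in WT replicate 1 were seen in 4 rows, of which 2 were at or under 3 counts in each other library. Hoxb3os, antisense to Hoxb3, had 163 normalized counts in WT replicate 1, 1.43 and 1.01 in the other WT libraries and 0 in each Sgo1-/+ library. The transcript at Hotairm1 (listed as Gm15051), in the Hoxa cluster, had 49.8 in WT replicate 1 and between 0 and 3.47 in the others. Haglr (listed as 6720416L17Rik), which lies in the Hoxd cluster, had 41.1 in WT replicate 1 and between 0 and 8.19 in the others. Since the library kit does not mark strand and the counting is not stated to use it, such reads cannot be told apart from those of an overlapping Hox gene.

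At the 5' ends of Hoxa and Hoxd lie the related homeobox genes Evx1 and Evx2, which mark interneurons of the spinal cord and hindbrain. Evx1 had 24.2 normalized counts in WT replicate 1, and of the other 5 libraries only WT replicate 2 was above 0, at 0.48. Evx2 had 33.6 in WT replicate 1, 0.95 and 2.11 in the other WT libraries and between 0 and 0.51 in the Sgo1-/+ libraries. Both were detected in WT replicate 1 although the Hox genes next to them were not, with at most 0.33 counts over the 4 genes Hoxa9 to Hoxa13 and at most 3 over the 5 genes Hoxd9 to Hoxd13. Among the 24 nearest protein-coding genes, 3 on each side of each cluster, 18 had over 10 counts in every library, and their level in WT replicate 1 was between 0.642 and 1.40 times that of the highest other library. The ends of this span were Snx10, at 1044 normalized counts against 1401 to 1625, and Hibadh, at 920 against 589 to 657. Of the 24, 19 passed the filter, and WT replicate 1 lay within the range of the other 5 libraries for only 3 of these. By edgeR, 0 of the 19 had an unadjusted p under 0.05 between genotypes. Over all genes that passed the filter, 1.23% were lower and 0.808% higher at that p. On the group 1 side of Hoxd, the step in WT replicate 1 was thus between Mtx2 and Hoxd1.

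**Figure D3:**
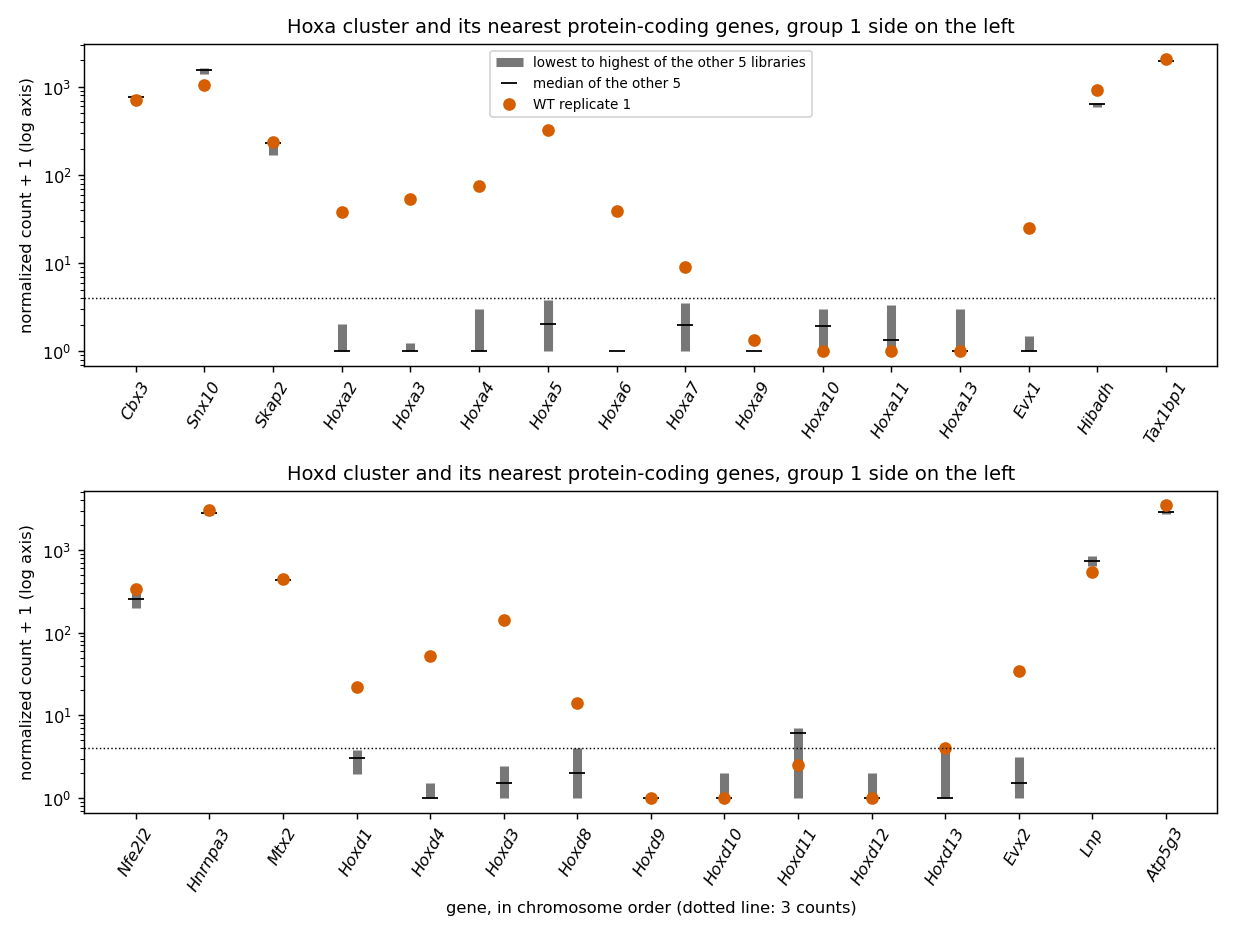
Normalized count plus 1 (log axis) of the reported genes of the Hoxa and Hoxd clusters and the 3 protein-coding genes on either side, in chromosome order, for WT replicate 1 (points) and for the other 5 libraries (bars from lowest to highest, dash at the median). The flanking genes other than Evx1 and Evx2 have their points near the bars, though mostly outside them. Hoxa2 to Hoxa6, Hoxd1 to Hoxd8, Evx1 and Evx2 have points far above the bars.

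The TALE cofactors of Hox proteins were expressed in all libraries, and all 9 passed the filter. None passed the threshold between genotypes, and by edgeR 1 of 9 had an unadjusted p under 0.05 (background 1.23% lower and 0.808% higher). This was Meis1, with 358, 177 and 151 normalized counts in the WT libraries and 117, 126 and 103 in the Sgo1-/+ libraries. Each Sgo1-/+ library was under each WT library, and the log2 fold change was -0.99 (SE 0.34) with all libraries and -0.51 without WT replicate 1, where the unadjusted p was 0.025. Pbx3 had 436, 783 and 514 in WT and 431, 373 and 170 in Sgo1-/+, again with no overlap, and a log2 fold change of -0.83 (SE 0.37). The exact two-sided permutation p was 0.1 for both genes, the smallest the design allows. These were the 2 of the 9 genes whose groups did not overlap. Over genes with more than 3 counts in some library, 3.31% did not overlap in the lower and 3.12% in the higher direction. Without WT replicate 1, 3 of 9 TALE genes had an unadjusted p under 0.05, among them Pbx3 and Meis1, all lower in Sgo1-/+, where 3.77% of all genes tested had one in either direction. The adjusted p of edgeR with all libraries was 1.00 for each, after rounding.

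Within the family, WT replicate 1 was highest only for Meis1 and lowest for 5 genes. Meis2, a marker of striatal neurons as well as a Hox cofactor, was at 1029 in WT replicate 1 and between 1316 and 4031 in the others. Meis3 and Pknox1 in WT replicate 1 lay within the range of the other 5 libraries, at 291 and 234. The excess of Meis1 in WT replicate 1 was thus small beside that of the Hox genes of groups 1 to 8, and most other cofactors were at their lowest where Hox RNA was at its highest.

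**Figure D4:**
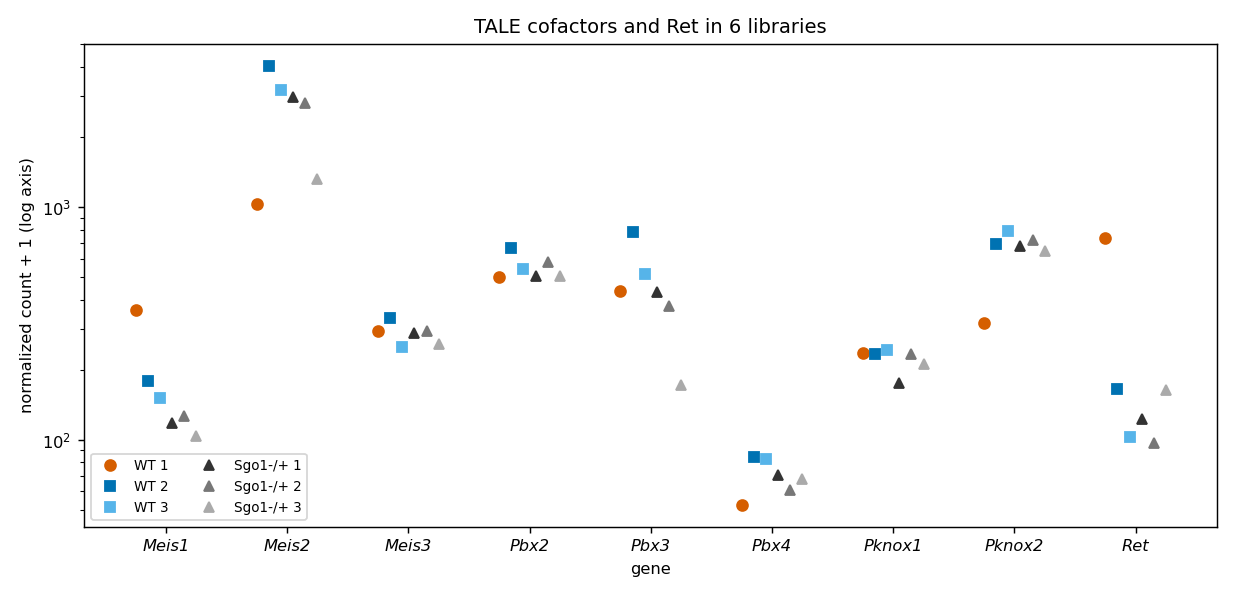
Normalized count plus 1 (log axis) of 8 TALE genes and Ret in each library, with WT replicate 1 as a circle, the other WT libraries as squares and the Sgo1-/+ libraries as triangles. WT replicate 1 is highest for Meis1 (358) and Ret (738) and lowest for Meis2 (1029).

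Of 14 genes that act upstream of Hox genes, 11 passed the filter, 0 had an unadjusted p under 0.05 by edgeR, and the median log2 fold change was -0.0042, against -0.00069 over all genes tested. Single genes went both ways, such as Egr2, with 23.3, 93.1 and 9.91 normalized counts in WT and 45.4, 172 and 45.4 in Sgo1-/+ and a log2 fold change of 1.05. Cdx1, Cdx2 and Cdx4, which switch on trunk Hox genes in the embryo, were at 0 in WT replicate 1. Rara, a receptor for retinoic acid, had 110, 78.0 and 111 normalized counts in WT and 121, 150 and 147 in Sgo1-/+, and Aldh1a2, which makes retinoic acid, had 136, 142 and 120 in WT and 118, 36.5 and 61.4 in Sgo1-/+. Neither gene overlapped between groups, with an exact two-sided permutation p of 0.1 each, and Aldh1a2 missed overlap narrowly, at 120 against 118. They were the 2 of the 14 genes without overlap. Over genes with more than 3 counts in some library, 3.31% did not overlap in the lower and 3.12% in the higher direction. The unadjusted p of edgeR was 0.0567 for Rara and 0.0658 for Aldh1a2. Without WT replicate 1, Rara was the 1 gene of the list with an unadjusted p under 0.05 by edgeR, at 0.0438. Aldh1a2 is also a gene of the meninges and stands on that list too. Rarb, a retinoic acid receptor that is itself induced by it, was at 135 in WT replicate 1 and between 286 and 566 in the others.

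The 15 Polycomb genes all passed the filter, and 0 had an unadjusted p under 0.05 by edgeR with or without WT replicate 1. Their summed level was 6799 normalized counts in WT replicate 1 and between 6728 and 7794 in the other 5, a spread that held WT replicate 1 within it. Among the smallest unadjusted p values by edgeR were those of Suz12 (log2 fold change -0.21, SE 0.13) and Ezh2 (-0.41, SE 0.33), both subunits of the complex that methylates histone H3. WT replicate 1 was the highest library for 3 of the 15 genes and the lowest for 5.

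Of 9 genes known as Hox targets or partners in hindbrain neurons, 7 passed the filter and 0 had an unadjusted p under 0.05 by edgeR. Ret, a receptor of enteric and motor neurons, had 738 normalized counts in WT replicate 1, 164 and 102 in the other WT libraries, and 122, 96.3 and 163 in the Sgo1-/+ libraries. Ret thus had the Hox pattern of 1 high WT library, but with 96.3 or more in the other 5. Foxp1 and Epha4 went the other way, at 256 and 658 in WT replicate 1 and at no less than 1254 and 2019 in the others. WT replicate 1 was highest for 4 of the 9 and lowest for 4.

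Marker lists of other brain regions were read beside the Hox sums, and their part in the result was not tested. The 20 brain stem markers other than Hox summed to 5315 normalized counts in WT replicate 1 and to between 327 and 710 in the others, and 16 of 20 were highest in WT replicate 1. Of these, 4, among them Lbx1, Tlx3 and Slc6a2, were over 10 counts in WT replicate 1 and at or under 3 in each other library, like most Hox genes of groups 1 to 8, while Mnx1, a somatic motor neuron gene, was at 0 there. Some of the 20, such as Phox2a and Pou4f1, also stand on the list of targets. The 15 markers of cerebellum and rhombomere 1 summed to 42729 in WT replicate 1 and to between 11092 and 13802 in the others, and 14 of 15 were highest in WT replicate 1. The 15 forebrain markers summed to 1288 in WT replicate 1 and to between 7040 and 7703 in the others. Relative to WT replicate 1, the other 5 libraries held 0.626 to 1.54% of its Hox level in groups 1 to 8. For the brain stem and cerebellar sums the shares were 6.15 to 13.4% and 26.0 to 32.3%. A sum weights each gene by its count, so these shares depend on which genes are listed and give no order of the regions. For Slc6a5 and Gabra6, given above, the other 5 libraries held a smaller share than for the sums of their lists, and other listed genes held a larger one.

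Among the 5 libraries other than WT replicate 1, where the cerebellar list as a whole spanned 11092 to 13802, single markers could vary more. Cbln3, a granule cell gene, was at 28.6 and 54.3 normalized counts in WT replicates 2 and 3 and at 171, 12.2 and 201 in Sgo1-/+ replicates 1 to 3. Between genotypes, by edgeR, the lists of region markers had 0 genes past the threshold, and at an unadjusted p under 0.05 there were 0 of 15 tested forebrain genes, 2 of 9 brain stem genes and 2 of 12 cerebellar genes, all 4 lower in Sgo1-/+ (background 1.23% lower and 0.808% higher). Without WT replicate 1 these 4 were no longer under it, and 4 forebrain genes were, 3 of them lower in Sgo1-/+, among them Dlx1 and Dlx5, and Six3 higher, where 3.77% of all genes tested were under it in either direction.

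**Figure D5:**
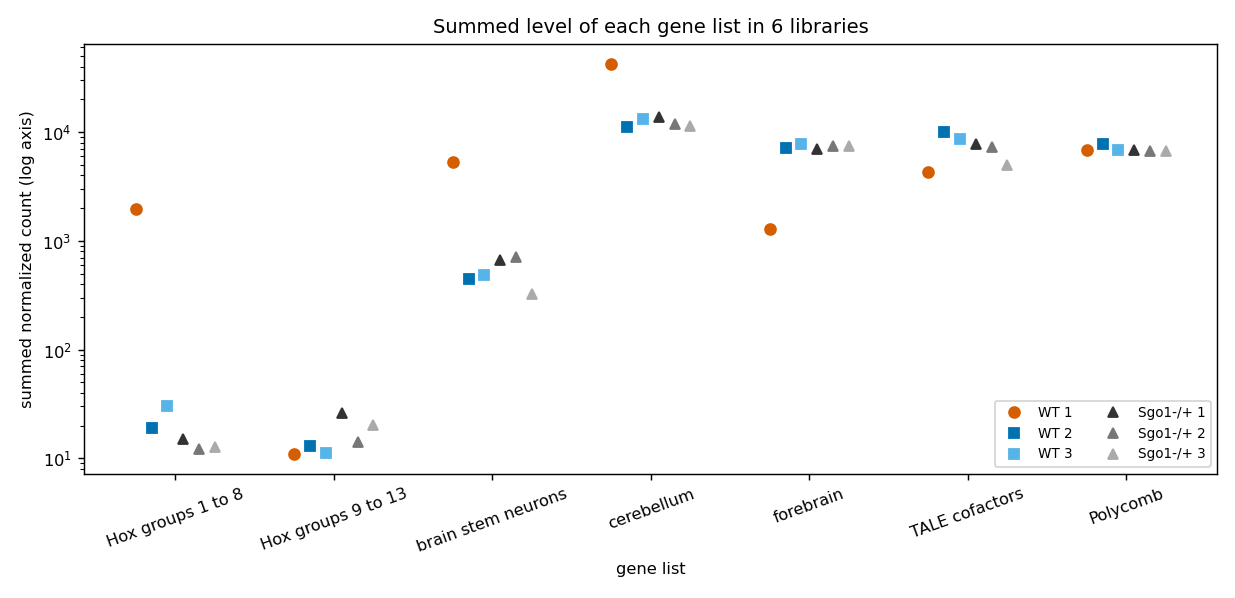
Summed normalized count (log axis) of each gene list in the 6 libraries, with WT replicate 1 as a circle, the other WT libraries as squares and the Sgo1-/+ libraries as triangles. WT replicate 1 is above the others for Hox groups 1 to 8 (1947), brain stem neurons (5315) and cerebellum (42729), and below them for forebrain (1288).

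Blood and meningeal markers did not set WT replicate 1 apart in this way. The 14 blood and leukocyte genes summed to 4113 normalized counts in WT replicate 1 and to between 1410 and 17167 in the others, and the 11 meningeal genes to 15386 against 3872 to 16413. In each of these lists 0 genes had an unadjusted p under 0.05 by edgeR, with 7 and 11 genes tested, and without WT replicate 1 2 of the 7 blood genes, the neutrophil genes S100a8 and S100a9, were under it and lower in Sgo1-/+ (background 3.77%).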

How the data were processed

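Brain RNA of 6 mice was sequenced on an Illumina MiSeq from TruSeq RNA V2 libraries, a kit that does not mark strand. The authors aligned reads to mm10 in Strand NGS 2.1 and deposited an estimated count per Ensembl gene and library, without normalization. Between 47.4 and 48.6% of values were not whole. The submitters' processing notes also name BWA and edgeR, and the annotation release is not given in the sources used here. Columns with the authors' own fold changes and normalized values were not used. The WT libraries summed to 11123917, 12505561 and 12298800 counts and the Sgo1-/+ libraries to 12424734, 12154543 and 12090256.

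Counts were rounded and fitted over all genes with edgeR 4.0.16 (quasi-likelihood test, TMM, default filter, no covariates, R 4.3.3). A gene was called at a Benjamini-Hochberg adjusted p under 0.05 and 2-fold. The standard error is the log2 fold change over the square root of F. Genes that the filter removed were fitted with it off. For normalized counts, each count was divided by the library size times its TMM factor and multiplied by the mean of these sizes. For single genes, all 20 groupings were enumerated in an exact two-sided permutation test (scipy 1.17.1). P-values measure the spread between 3 mice a group. The edgeR, DESeq2 and limma fits were checked on simulated counts of genes that passed the filter, without an outlying library. That check does not cover genes as low as the Hox genes, and the permutation test was not simulated.

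Exon lengths and overlaps came from GENCODE M21, which holds the IDs of 38 of the 39 members, and Hoxd4 was matched by symbol. Promoters came from RefSeq. The members, the gene lists and the tests were chosen with earlier results of these data known. Hox genes over 3 counts in a library were named, apart from what is not reported here, and of each list the genes with an unadjusted p under 0.05 and at most 3 more by p. Other list genes were picked once their values were known. The alternatives were DESeq2 1.42.0, DESeq2's size factors in edgeR, edgeR's likelihood ratio test, limma 3.58.1 on the logarithm of DESeq-normalized counts, other filters, sex, a replicate block, each library left out, other count floors and noncoding Hox genes added. DESeq2 without its outlier filter was added after the data were seen.

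Same-numbered libraries were not paired by the labels, and their deviations from the group means correlated at -0.145, 0.0098 and -0.209 for replicates 1 to 3. These values cannot decide on pairing, since deviations sum to 0 within a group and WT replicate 1 stood apart. The number was used only as a name. Sums and counts over lists include genes that are not named.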

Additional observations from a re-analysis of the deposited data

How the results depend on the processing

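Each alternative gave 0 Hox genes past the adjusted threshold, which includes edgeR's likelihood ratio test, DESeq2, limma, DESeq2's size factors, sex as a covariate, no filter and a filter of 10 counts in every library. With all libraries, 0 members passed the default filter. None could pass the filter of 10 counts, as libraries other than WT replicate 1 held at most 9 counts of a member. Under these 2 filters the result of 0 was therefore fixed in advance, and a call was open only with the filter off. The number of Hox genes with an unadjusted p under 0.05, 16 by quasi-likelihood, was 1 by the DESeq2 Wald test, 9 by the same test without its outlier filter, 1 with limma on DESeq-normalized counts, 1 without WT replicate 1, and 2, 4 and 4 without Sgo1-/+ replicates 1, 2 and 3, so it ranged from 1 to 17 over the libraries left out. The median log2 fold change of the members ranged from -4.17 to 0.017 over the libraries left out, and it changed sign only without WT replicate 1. The cause of the lower counts in the other settings was not tested.

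The replicate number as a block gave 15 genes with an unadjusted p under 0.05 and a median of -2.20, and it changed no call. The labels do not pair the mice, and the correlations of same-numbered libraries cannot decide on pairing.

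The most caudal group moved with the floor, from 9 in WT replicate 1 to 13 at over 1 count, 8 at over 5 or over 10 counts and 13 by the sum of a group over 3 counts. At over 1 count it was also 13 in WT replicate 3 and in Sgo1-/+ replicates 1, 2 and 3. By the sum of a group it was 13 in Sgo1-/+ replicate 1. At over 5 counts no group, entered as 0, was left in WT replicate 3 and Sgo1-/+ replicate 2, and at over 10 counts none, entered as 0, in WT replicates 2 and 3 and Sgo1-/+ replicates 1, 2 and 3. Summed Hox counts kept their order between WT replicate 1 and the rest under each scaling tried, with 1948 in WT replicate 1 by DESeq2's size factors and 2110 when scaled by total count alone.

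Of single genes with libraries left out, the log2 fold change of Hoxb9 ranged from -0.93 to 1.79, Hoxd11 from -0.082 to 1.75 and Pbx2 from -0.19 to 0.023. Hoxb5 ranged from -10.1 to 0.38, Hoxb6 from -6.14 to 0.87, Hoxc5 from -5.58 to 0.051, Hoxc6 from -3.32 to 0.027, Hoxa7 from -2.48 to 0.030 and Hoxd1 from -2.23 to 0.63. For these 6 Hox genes the highest value was that without WT replicate 1, where each library left had at most 3 counts, too few for a direction to be read. The other 466 values of single genes kept their direction. Among them are values without WT replicate 1 that are also too low for a direction to be read. Examples are Hoxa2, Hoxb2 and Hoxc4, where each library left had at most 3 counts. Hoxa3, Hoxa6 and Hoxd4 could not be fitted without WT replicate 1. Depth limits groups 9 to 13, where single genes had at most 9 counts.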

Other observations

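The genes that shared the Hox pattern, over 10 counts in WT replicate 1 and at most 3 in each other library, numbered 63, of which 53 were protein coding and 35 of those were not Hox genes. The genes given here were picked from the 35 after their values were seen, and no group of genes among them was tested. Of transcription factors, Lbx1, which marks dorsal interneurons, had 127 counts in WT replicate 1, Pax8 had 98.6, Tfap2a had 63.8, Tlx3 had 43.5, Lhx4 had 32.5, Nkx6-1 had 27.5, Pou4f2 had 26.0, Tlx1 had 15 and Isl2 had 13. Among genes that encode secreted or transport proteins, Slc5a1 had 52.0 counts, Calcb 34.8, Gcg, the gene of the glucagon peptides, 31.2 and Slc6a2, the noradrenaline transporter, 16.0. The 35 also held genes of other kinds, such as Il22, a cytokine gene, at 36.9, Prkag3, a subunit of a muscle kinase, at 26.0 and Akr1b7, an aldo-keto reductase, at 12.6. By count, Hoxb5 and Hoxa5 were the highest of the 63 genes.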
